A study of Mus musculus with 2 samples.

Results

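The transcript models described here begin like an annotated transcript but end early. A model of this kind keeps the first introns of an annotated transcript, read from the 5' side, and lacks the later introns and exons. It is called a prefix, a subtype of the incomplete splice match (ISM) class, and the deposited tables give the class. The members are the prefix models with at least 2 exons and at least 5 reads in a library. Replicate 1 had 1860 members among 132801 models and replicate 2 had 1665 members among 133303, and over both libraries they made up 2348 different chains of introns. The class, the number of exons and the number of reads chose the members, so their number and their level in the library that chose them are a description. For 129 members in replicate 1 and 106 in replicate 2, the deposited annotation listed no M21 transcript as the one they begin. A match was sought only in that list, so these are members by the deposited class alone.

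The data were 2 long-read RNA sequencing libraries of total RNA from the cortex of the left cerebrum. The mice were adults at an age of 6 months, with no treatment or engineered allele given, and their strain was given as B6NCrl in one label and as C57BL/6 in another. The labels called them biological replicates 1 and 2 of 1 group, gave both the same donor record, and stated the sex in 1 field (male) but as not collected in another. They did not say whether the tissue came from separate animals, so the spread between the libraries may be technical in part, and the p-values below measure counting noise between libraries. Replicate 1 held 1306424 reads and replicate 2 held 1304133 reads. Markers of the labelled tissue were present in both libraries: Mbp, a myelin protein, had 4171 reads in replicate 1 and 3314 in replicate 2, and Camk2a, a kinase of excitatory neurons, had 390 and 691. Alb, the liver's albumin, had 0 reads in either. Positions refer to mouse build mm10 with GENCODE M21 gene models.

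A messenger RNA gets its 3' end when the cleavage and polyadenylation machinery reads a signal, most often AAUAAA, cuts the RNA a short way past it and adds a tail of A. A transcript that ends early inside an intron can be a natural short form made at such a signal. Libraries are commonly primed with oligo-dT, which anneals to the tail and can also anneal to an A-rich stretch inside an RNA. The primer of these libraries is not stated in the sources used here.

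The sequences below are shown because A-rich stretches were the feature most members' last exons shared. Each is the part of the last exon reached by an abundant prefix chain, read 5' to 3' from the GENCODE M21 transcript, and the capitals mark the 20-base window of that exon with the most A.
Hsp90ab1 exon 6: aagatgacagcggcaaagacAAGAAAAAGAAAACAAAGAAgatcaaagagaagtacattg
Hsp90aa1 exon 5: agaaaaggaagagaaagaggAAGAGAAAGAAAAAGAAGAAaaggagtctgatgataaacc
Hsp90b1 exon 7: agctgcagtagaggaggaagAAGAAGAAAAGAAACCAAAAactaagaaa
Kif5c exon 11: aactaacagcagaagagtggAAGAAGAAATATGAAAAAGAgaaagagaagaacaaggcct
Son exon 3: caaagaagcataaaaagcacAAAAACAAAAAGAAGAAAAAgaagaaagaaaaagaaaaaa
Eif5 exon 7: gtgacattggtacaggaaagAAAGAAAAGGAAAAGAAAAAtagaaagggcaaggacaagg
Syt1 exon 5: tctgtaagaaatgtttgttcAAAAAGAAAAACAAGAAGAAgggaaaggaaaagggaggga

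These stretches lie in coding exons at chr17:45570383-45570442 (minus strand) for Hsp90ab1, chr12:110694240-110694299 (minus) for Hsp90aa1, chr10:86698319-86698367 (minus) for Hsp90b1 and chr2:49710758-49710817 (plus) for Kif5c. The others lie at chr16:91654689-91654748 (plus) for Son, chr12:111541712-111541771 (plus) for Eif5 and chr10:108642270-108642329 (minus) for Syt1. The window in Son holds 17 A, those in Hsp90ab1, Eif5 and Syt1 hold 16, and those in Hsp90aa1 and Hsp90b1 hold 15. The window in Kif5c holds 14 A. In reading frame, 5 of the 6 codons that lie whole in the Hsp90ab1, Son and Syt1 windows are AAA or AAG, the lysine codons, and 4 of 6 are so in Kif5c and Eif5. In Hsp90b1 the count is 3 of 6 and in Hsp90aa1 it is 2 of 6. Among abundant chains not printed, the richest window holds 11 A in Atp6v1d and Dnaja1, 12 in exon 4 of Sparcl1 and 13 in Fkbp3. It holds 15 A in Tcf25 and Map1b and 17 in Kifap3. The printed sequences therefore do not show the low end of this range.

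Members were a small part of the libraries and a large part of a few genes. They held 37162 reads, 2.84% of the library, in replicate 1 and 34099 reads, 2.61%, in replicate 2 (mean 2.73% ± 0.163, SD, n = 2). The median member had 10 reads in either library, and 127 members in replicate 1 and 104 in replicate 2 had 50 reads or more. They lay in 1206 genes in replicate 1 and 1085 in replicate 2, 99.2% of members in protein-coding genes in each. Just inside the limit, 312 members in replicate 1 and 276 in replicate 2 had exactly 5 reads, and just outside it 412 and 378 prefix models had exactly 4. Atxn10 and Spag9 chains were among those with exactly 5 reads in replicate 1, and they had 28 and 22 reads in replicate 2.

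Most members stopped far upstream of the annotated end. An annotated parent transcript could be assigned to 1731 members in replicate 1 and 1559 in replicate 2. The member left out a median of 6 of the parent's exons in replicate 1 (quartiles 3 and 11) and 5 in replicate 2 (quartiles 2 and 11). It covered a median of 29.9% of the parent's length in either library, and 78.8% of members in replicate 1 and 79.4% in replicate 2 covered less than 50%. Of the members with a coding parent, 97.2% in replicate 1 and 97.4% in replicate 2 ended before the stop codon. Members began near the annotated start: 75.1% in replicate 1 and 71.5% in replicate 2 started within 50 bases of the parent's 5' end.

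**Figure D1:**
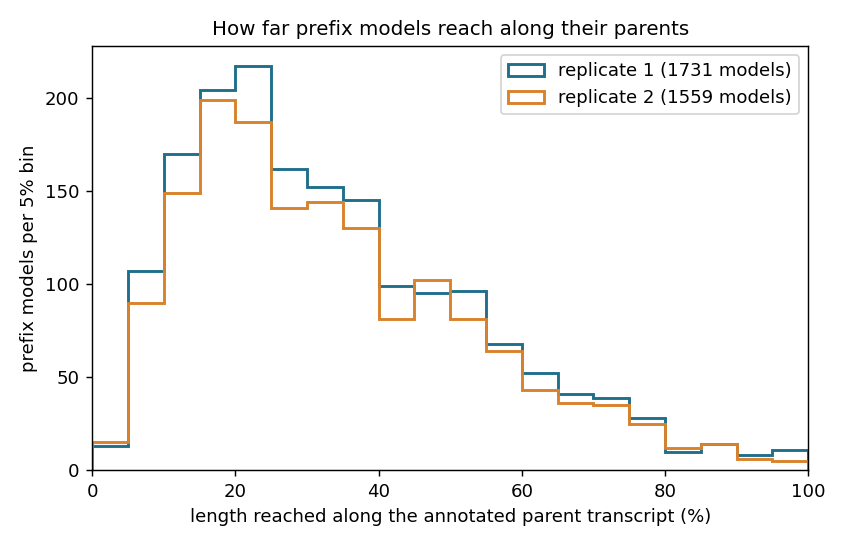
Number of prefix models (vertical axis, per 5% bin) by the share of the annotated parent's spliced length they covered (horizontal axis, %), for replicate 1 and replicate 2. Both libraries peak below the median of 29.9% and thin out towards the full length.

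Most deposited 3' ends lay inside an annotated exon of some transcript of the gene. In replicate 1, 69.8% of ends (95% Clopper-Pearson interval 67.7 to 71.9, n = 1860) lay inside an annotated exon of the gene and 28.9% (26.9 to 31.0) within 50 bases of an annotated transcript end. In replicate 2 the shares were 68.8% (66.5 to 71.1, n = 1665) and 29.8% (27.6 to 32.0). Only 21 ends (1.13%) in replicate 1 and 19 ends (1.14%) in replicate 2 lay in an intron and in no exon of any annotated transcript. Measured against the assigned parent alone, more ends lay past the last exon reached. These were 8.43% of 1731 ends in replicate 1 and 7.70% of 1559 in replicate 2, a median of 456.5 and 427.5 bases past it. Most of them count above as in an exon of another transcript or near an annotated end. Suffix models, which lack the 5' part of an annotated chain instead, ended within 50 bases of an annotated end in 87.2% of the 3099 in replicate 1 and in 86.0% of the 3710 in replicate 2.

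The deposited positions limit what can be read from an end. They equalled an annotated transcript end or exon edge to the base in 89.6% of members in replicate 1 and 89.1% in replicate 2, so for these the file gives the annotated position and not where the reads stopped. Of the transcript ends matched in this way, 41.4% in replicate 1 and 42.0% in replicate 2 belonged to protein-coding transcripts, 24.8% and 26.3% to retained-intron transcripts, and 10.8% and 9.21% to transcripts annotated as subject to nonsense-mediated decay. A position can belong to more than 1 type.

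The few intronic ends fell into a group close to the exon and a group far from it. Atp6v1d, which encodes a subunit of the proton pump that acidifies vesicles, had a chain of 8 of 9 exons with 202 reads in replicate 1 and 229 in replicate 2, and both ended 4 bases into the last intron, at position 78845222 of chromosome 12. Abcb1b, an efflux transporter, had a chain of 4 exons with 5 reads in replicate 1 and 7 in replicate 2 that ended 1002 and 1004 bases into an intron of 4387 bases. Tasp1, which encodes a protease, had a chain of 8 exons with 9 reads in replicate 1 and 8 in replicate 2, and both ended at the same base, 1383 bases into the intron.

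For other chains the place depended on the library. The 2-exon chain of Ccdc186 had 46 reads in replicate 1 and was deposited with an end 343 bases into the intron, whereas in replicate 2 it had 24 reads and an end exactly at the exon edge. Gpr22, an orphan G protein-coupled receptor, showed the opposite: its chain of 2 exons ended at the exon edge in replicate 1 (32 reads) and 504 bases into the intron in replicate 2 (59 reads). Among ends more than 50 bases into the intron that follows the last exon in the assigned parent, 14 in replicate 1 lay a median of 1460 bases and 14 in replicate 2 a median of 893.5 bases past the exon, and all of these chains had a read in the other library. The end of a further chain in replicate 2, of Rbm28, lay 1038 bases past the exon and so beyond the parent's next intron of 133 bases.

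The last exons of members were rich in A. A 20-base window with at least 12 A occurred in 78.2% of last exons in replicate 1 (76.1 to 80.1, n = 1730) and 77.5% in replicate 2 (75.3 to 79.5, n = 1559), a mean of 77.8% ± 0.470 (SD, n = 2). Among all inner exons of the same parent transcripts the share was 27.3% (26.6 to 28.0, n = 15569) in replicate 1 and 27.8% (27.0 to 28.6, n = 13258) in replicate 2. Among the inner exons at which no prefix model of any read number ended, it was 15.6% of 11124 and 15.7% of 9272. Last exons were counted once per member, so an exon that ends several members counts more than once, whereas inner exons were counted once each. The intervals treat all of them as independent. Among exons of 80 to 200 bases, 77.8% of last exons and 15.6% of these other inner exons had such a window in replicate 1, and 77.1% and 15.4% in replicate 2. With 1 member taken per gene the share was 79.3% (76.9 to 81.6, n = 1164) in replicate 1 and 79.0% (76.4 to 81.4, n = 1046) in replicate 2. The windows were measured after the members had been chosen by reads, and the part of A content in forming these models was not tested.

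**Figure D2:**
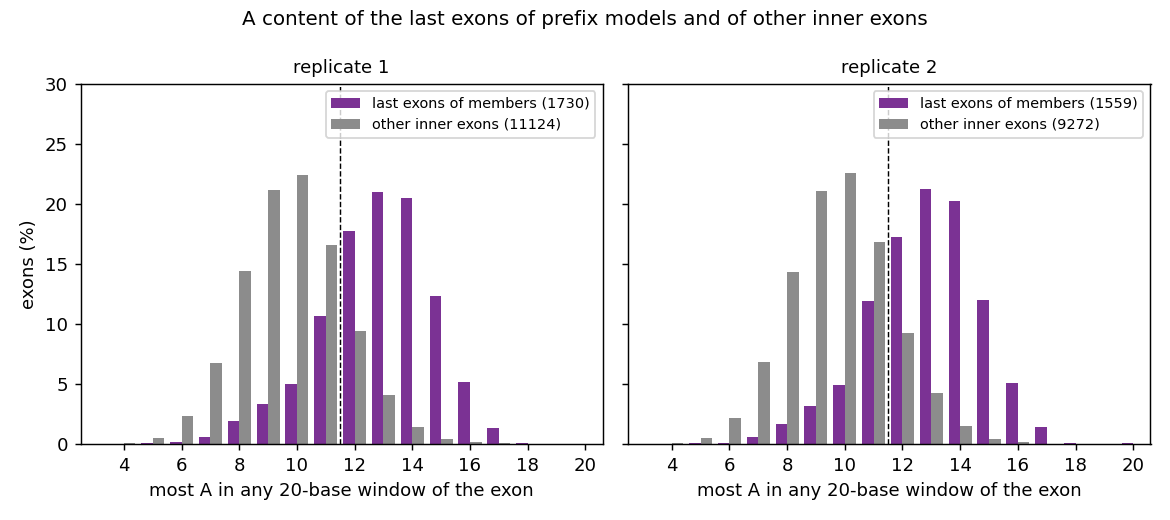
Percent of exons (vertical axis) by the most A found in any 20-base window of the exon (horizontal axis), for last exons of prefix members (purple) and inner exons of the same parents at which no prefix model ended (grey), in each library. Exons right of the dashed line have 12 A or more; the last exons have a median of 13 and the other exons a median of 10 in either library.

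The share was higher for models with more reads. In replicate 1 the A-rich window was found in 37.5% of last exons of prefix models with 1 read, 59.0% with 2 to 4 reads, 74.4% with 5 to 9, 81.2% with 10 to 49 and 85.2% with 50 or more (77.7 to 91.0, n = 122). In replicate 2 the shares in the same order were 38.6%, 61.5%, 74.2%, 79.9% and 86.0% (77.6 to 92.1, n = 100). Median exon lengths ran from 133 to 147 bases in replicate 1 and from 131 to 146 in replicate 2 over these classes.

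**Figure D3:**
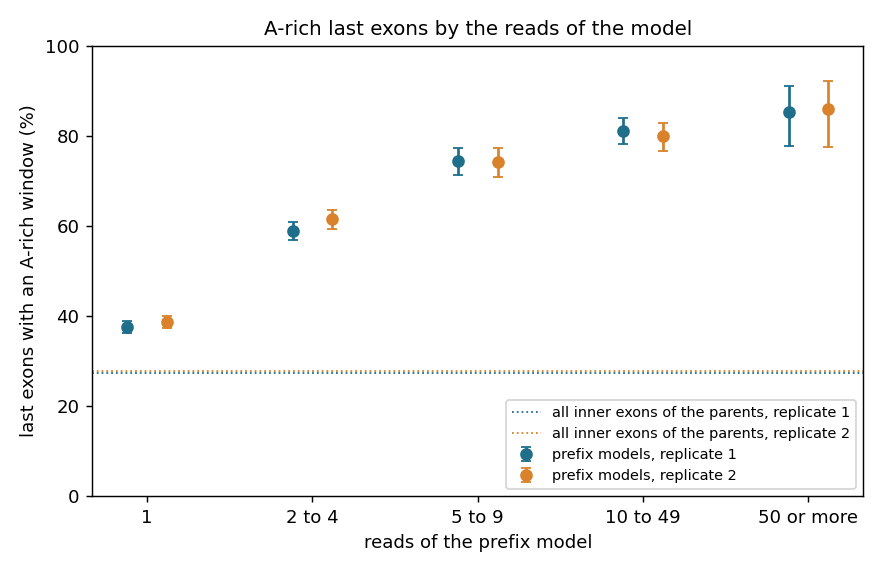
Percent of last exons holding a 20-base window of at least 12 A (vertical axis) by the number of reads of the prefix model (horizontal axis), with 95% Clopper-Pearson intervals, in each library. Dotted lines give all inner exons of the parents, 27.3% in replicate 1 and 27.8% in replicate 2, and each read class lies above them.

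Most of these windows lay in coding sequence. Of windows with at least 12 A, 1283 in replicate 1 and 1147 in replicate 2 lay wholly in the coding sequence of the parent. In these, 47.2% in replicate 1 and 47.8% in replicate 2 had 3 or more lysine codons (AAA or AAG) among the codons that lie whole in the window, with a median of 2 in either library. Among coding windows with at least 12 A in the inner exons at which no prefix model ended, 24.5% of 1674 in replicate 1 and 23.7% of 1396 in replicate 2 had 3 or more, also with a median of 2. These windows were chosen for their A, which raises the number of such codons in both sets, and the sets were not matched for the number of A.

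Canonical signals were uncommon before those members' ends that could be read. Ends outside the parent's exons had no sequence and were left out. Of members with a parent, 1637 of 1731 in replicate 1 and 1485 of 1559 in replicate 2 were read. AATAAA or ATTAAA on the transcript strand stood in the 50 bases before the deposited end in 9.41% of members in replicate 1 (8.04 to 10.9, n = 1637) and 8.08% in replicate 2 (6.74 to 9.59, n = 1485). The same letters stood before 2.62% and 2.75% of the edges of inner exons at which no prefix model ended. They stood before 75% of suffix model ends in replicate 1 and 74.2% in replicate 2, and before 74.6% and 73.7% of the annotated ends of known models with at least 5 reads. Directly after the deposited end, at least 12 of 20 bases were A in 19.3% of members in replicate 1 and 18.2% in replicate 2, against 0.602% and 0.669% after the edges of those other inner exons. For ends inside the exon and off every annotated edge it was 26.7% (19.7 to 34.7, n = 146) in replicate 1 and 24.3% (17.4 to 32.2, n = 140) in replicate 2. The other inner exons in these comparisons were picked because no prefix model ended there, and they were read only at their edges. Members' ends also lay at transcript ends and inside exons. No share over all inner exons is given for the signal or for the A after the end, so the contrasts depend on this choice. Since most ends took annotated positions, a match or its lack says only which letters stand in these windows.

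Cytosolic Hsp90 chaperones, which fold kinases and other clients, gave the most abundant member. The Hsp90ab1 chain ending in exon 6 of 11 had 2266 of 3243 gene reads in replicate 1 (69.9%, 68.3 to 71.5) and 2360 of 3359 in replicate 2 (70.3%, 68.7 to 71.8), and known Hsp90ab1 models had 335 and 173 reads. The difference of the shares did not pass the test (Fisher's exact test, Benjamini-Hochberg adjusted p = 0.998). Its deposited end was an annotated transcript end at 45570445 in replicate 1, 22 bases before the A-rich window printed above, but the exon's edge at 45570258 in replicate 2. The Hsp90aa1 chain ending in exon 5 of 11 had 250 of 734 reads (34.1%) in replicate 1 and 213 of 988 (21.6%) in replicate 2, a difference of 12.5 percentage points (Fisher's exact test, adjusted p = 6.85e-07). Hsp90b1, the Hsp90 of the endoplasmic reticulum, had 173 of 333 reads (52.0%) and 225 of 463 (48.6%) on a chain ending in exon 7 of 18. Dnaja1, a co-chaperone of the Hsp70 system, had 27.3% and 23.3% of its reads on a chain ending in exon 5 of 9, whose last exon holds at most 11 A in a window.

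Kinesin motors of axonal transport had further abundant members. Kif5a, Kif5b and Kif5c encode the heavy chains of kinesin-1, which carries cargo along microtubules, and the members with the most reads of all 3 genes ended in exon 11, of 149 bases in each. They were compared as a family after their values had been seen. The Kif5c chain had 661 of 879 reads in replicate 1 (75.2%) and 813 of 1100 in replicate 2 (73.9%), with 4 reads on known Kif5c models in each library. The Kif5b chain had 494 of 711 reads (69.5%) in replicate 1 and 437 of 757 (57.7%) in replicate 2 (exact test, adjusted p = 0.000132). The Kif5a chain had 182 of 671 reads (27.1%) and 57 of 573 (9.95%), 17.2 points higher in replicate 1 (exact test, adjusted p = 9.11e-13). The 3 exons are 67.1% to 71.1% identical to each other in sequence. The richest window holds 16 A in Kif5b, 14 in Kif5c and 11 in Kif5a.

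Kif1a, a motor of synaptic vesicle precursors, had 161 of 396 reads (40.7%) in replicate 1 and 156 of 417 (37.4%) in replicate 2 on a chain ending in exon 9 of 48. The last exon of this chain holds at most 8 A in a window. Kif1a had no read on a known model in either library. A further Kif1a member ended in the next exon, of 18 bases, with 39 reads in replicate 1 and 41 in replicate 2. The richest window that starts in this next exon, and runs past it, holds 15 A. Kifap3, the accessory subunit of kinesin-2, had 173 of 304 reads (56.9%) and 251 of 389 (64.5%) on a chain ending in exon 3 of 21. Map1b, which stabilizes microtubules in growing axons, had 499 of 1126 reads (44.3%) and 444 of 1139 (39.0%) on a chain ending within its exon 5 of 6490 bases, 19.6% along the parent.

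Single members of Syt1 and Sparcl1 held smaller shares of their genes than most chains above. Syt1, the calcium sensor of transmitter release, had 106 of 932 reads (11.4%) in replicate 1 and 212 of 1034 (20.5%) in replicate 2 on a chain ending in exon 5 of 11 (exact test, adjusted p = 2.59e-06, under the size limit of 10 points). Another Syt1 chain went the other way, with 70 reads in replicate 1 and 20 in replicate 2, and was not called. All Syt1 members together held 26.6% of the gene's reads in replicate 1 and 28.5% in replicate 2. Sparcl1, a matrix protein secreted by astrocytes, had 2 abundant members that differed in opposite directions. The chain ending in exon 4 had 239 of 1802 reads in replicate 1 and 298 of 1654 in replicate 2, and the chain ending at exon 8 had 294 and 150.

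The other chains among the 20 with the most reads came from genes of several functions. Sec62, part of the protein translocation channel of the endoplasmic reticulum, had 362 of 406 reads (89.2%) in replicate 1 and 415 of 486 (85.4%) in replicate 2 on a chain ending in exon 4 of 8. Son, a splicing factor of nuclear speckles, had 196 of 239 (82.0%) and 222 of 269 (82.5%) on a chain ending 15 bases before the A-rich window printed above, at position 91654693 of chromosome 16 in both libraries, which is no annotated edge. Son had no read on a known model in either library. Eif5, which activates the GTPase of the initiation complex, had 50.2% in each library, ending at an annotated transcript end 4 bases before its window. The other printed chains, of Hsp90aa1, Hsp90b1, Kif5c and Syt1, ended past their whole windows in both libraries. The Hsp90ab1 chain did so in replicate 2. Tcf25 had 34.5% and 36.0%, and Fkbp3, a prolyl isomerase, 36.7% and 35.6%. These shares are of all reads of the gene. Of reads on known and incomplete-match models alone, the mean share was 94.9% for Map1b, 64.0% for Kif1a and 27.3% for Syt1.

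**Figure D4:**
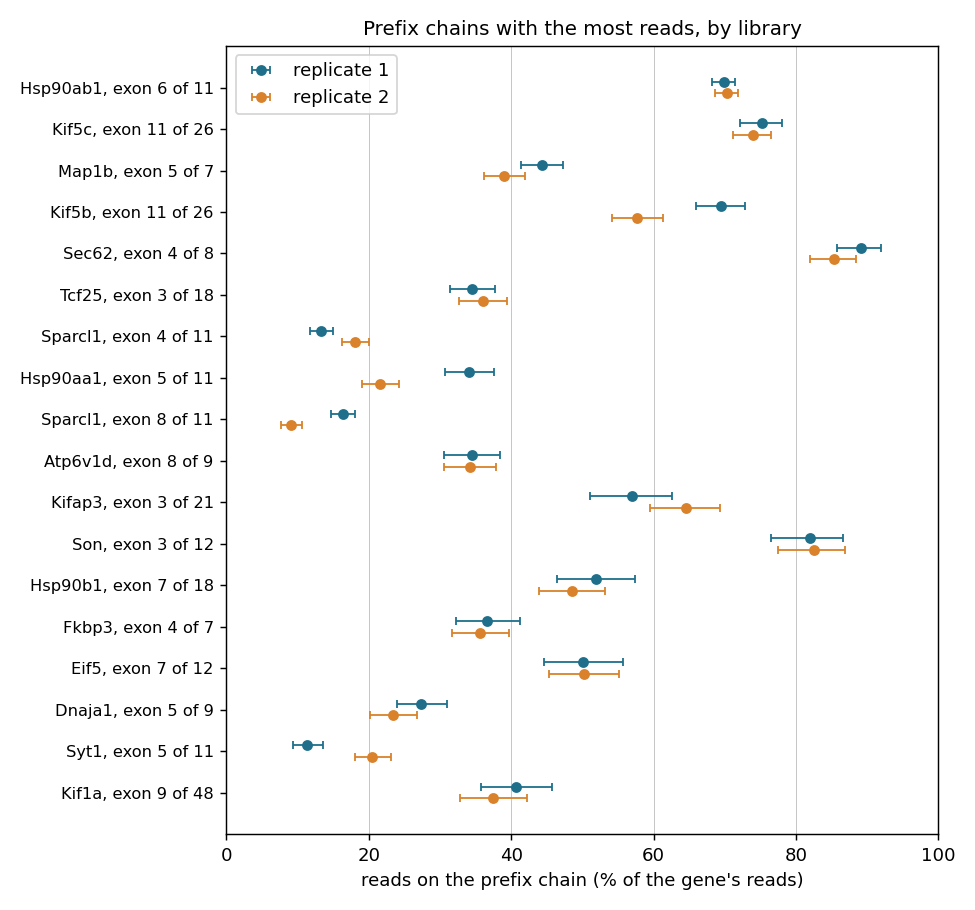
Percent of a gene's reads on the chain (horizontal axis) for chains among the 20 members with the most reads over both libraries (vertical axis, with the exon in which each ends), with 95% Clopper-Pearson intervals, in replicate 1 and replicate 2. Sec62 and Son lie above 80% in both libraries, and the chains of Syt1 and Sparcl1 lie below 21% in both.

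In some genes most reads were on members. Among genes with at least 50 reads in each library, Rexo1, a putative RNA exonuclease, had 75 of 80 reads (93.8%) on members in replicate 1 and 84 of 92 (91.3%) in replicate 2. Mphosph8, a reader of repressive chromatin in the HUSH complex, averaged 83.6% ± 5.58 (SD, n = 2). Top1, DNA topoisomerase I, averaged 82.3% ± 2.65 over 5 members in replicate 1 and 4 in replicate 2. Wasl, an activator of actin branching, averaged 83.2% ± 3.34 and Pdap1 82.9% ± 0.715. Ahi1, a ciliary protein, averaged 76.8% ± 8.85. Rtf1, a subunit of the Paf1 elongation complex, had 160 of 186 reads (86.0%) in replicate 1 and 50 of 76 (65.8%) in replicate 2. In the median gene with a member, members held 25% of reads in replicate 1 and 21.7% in replicate 2.

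The share of genes with a member ranged from 11.1% to 78.3% over the gene lists. Of all 6644 genes with at least 20 reads in each library, 18.2% had a member in either library, and of the 2309 genes with at least 200 reads over both, 23.9%. Chaperones had members in 18 of 23 genes (78.3%), cytoskeleton and motor genes in 15 of 34 (44.1%), cytosolic ribosomal proteins in 12 of 32 (37.5%), splicing regulators in 11 of 33 (33.3%) and synaptic vesicle and release genes in 9 of 30. At the low end, glycolysis and creatine genes had members in 2 of 18 (11.1%), myelin and oligodendrocyte genes in 2 of 16 (12.5%) and oxidative phosphorylation genes in 4 of 24 (16.7%). These low shares rest on few genes and lie near the 18.2% over all genes. No difference between lists was tested. In between lay glutamate and GABA receptors with 6 of 21, calcium and calmodulin signalling with 5 of 20, 3' end processing with 4 of 18 and astrocyte genes with 4 of 19. The median gene reads differed between lists, from 54 to 1050.75 per library, and the glycolysis and creatine list, with the most reads, had the lowest share of genes with a member. The median share of gene reads on members was 0% in every list except chaperones, with 2.56%, and 0% over all genes.

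Within the lists, members took up large shares of few genes. Srsf11, a splicing regulator, averaged 48.6% ± 0.700 (SD, n = 2) of its reads on members, and Gria2, a subunit of AMPA receptors, 18.3% ± 1.62. Atp2b1, a plasma membrane calcium pump, averaged 17.0% ± 3.85 and Mag, a myelin adhesion protein, 16.7% ± 2.51. By contrast Snap25, which drives vesicle fusion, averaged 1.3% ± 0.109, Ckb, the brain creatine kinase, 0.226% ± 0.114, and Aldoa, a glycolytic enzyme with 3657 gene reads in replicate 1 and 4103 in replicate 2, had no member.

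Of 12 genes known for a short form that ends in an intron, 8 had at least 20 reads in each library and 3 had a member. The chains of all 3 met the rule in replicate 1 only but were read in both libraries. Homer1, a scaffold of the postsynapse, had 14 of 103 reads in replicate 1 and 2 of 78 in replicate 2 on a chain ending in exon 8. Pcf11, itself a factor of 3' end formation, had 9 of 22 and 1 of 24 on a chain ending in exon 5. The Ighm chain had 6 of 77 and 7 of 79 reads, and in replicate 2 it was deposited under another class. The Homer1 and Pcf11 ends lay in exons. Ntrk2, with 348 gene reads in replicate 1 and 340 in replicate 2, had no member. Short forms that M21 annotates are classed as known and are not counted here.

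Chains recurred between the libraries. Of the 1860 members of replicate 1, 91.4% (90.0 to 92.6) had a read in replicate 2, and of the 1665 members of replicate 2, 96.7% (95.7 to 97.5) had a read in replicate 1. Known spliced models by the same limit recurred in 96.1% and 99.4%, and suffix models in 97.1% and 95.7%. Among members with 50 reads or more, 124 of 127 in replicate 1 and 104 of 104 in replicate 2 were found in the other library. As members in both, with at least 5 reads in each, 1177 chains (50.1% of 2348) were shared, and 78.6% of these differed by at most 2-fold in counts scaled to the library total. Their ends lay within 50 bases of each other in 91.5% (89.8 to 93.0) and at the same base in 87.6%. For the 164 shared chains with an end off the annotated edges, 55.5% (47.5 to 63.2) lay within 50 bases and 38.4% at the same base, with a median distance of 14.5 bases.

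Some members nevertheless held different shares of their gene in the libraries. Of 1570 member chains tested, 121 were called (adjusted p under 0.05 and a difference of at least 10 percentage points), 92 higher and 29 lower in replicate 1. Members met the rule in either library, so the test used reads that also chose them, and the count is a description. Over all 13141 spliced chains tested, 5.51% were called, 4.73% higher and 0.784% lower in replicate 1, so calls higher in replicate 1 outnumbered the others in all chains too. By adjusted p alone, 180 member chains passed, against 7.82% of all chains. Bod1l, which protects stalled replication forks, differed most: 75 of 103 reads (72.8%) in replicate 1 and 1 of 58 (1.72%) in replicate 2 (exact test, adjusted p = 1.65e-18). Dock3, an activator of the GTPase Rac in neurons, had 83 of 128 reads in replicate 1 and 0 of 42 in replicate 2, which allows a share of up to 7.14% (exact test, adjusted p = 1.93e-13). Arhgap20 had 63 of 100 and 2 of 37, Flrt1, an adhesion protein, 84 of 105 and 7 of 28, and Ulk2, a kinase of autophagy, 17 of 31 and 0 of 24. Of these named chains, only that of Flrt1 had at least 5 reads in both libraries.

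The differences in the opposite direction were smaller. Gmppb, an enzyme of sugar nucleotide synthesis, had 0 of 36 reads in replicate 1, which allows up to 8.33%, and 20 of 63 in replicate 2 (exact test, adjusted p = 0.00124). Sugt1, a co-chaperone of Hsp90, had 19 of 145 reads (13.1%) and 67 of 171 (39.2%) (exact test, adjusted p = 8.36e-06). The chain of 4921524J17Rik had 8 of 42 and 19 of 36 reads, that of Prkrip1 8 of 53 and 23 of 55, and that of Rnf10, a ring finger protein, 20 of 178 and 31 of 88. The highest GC content in any 100 bases of the covered part had a median of 83% in called chains higher in replicate 1 (88 with sequence), 74% in called chains lower in replicate 1 (27) and 74% in chains not called (1335). The part of GC content in these differences was not tested. Intervals and limits cover counting error only, since reads without molecular identifiers are not independent molecules.

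**Figure D5:**
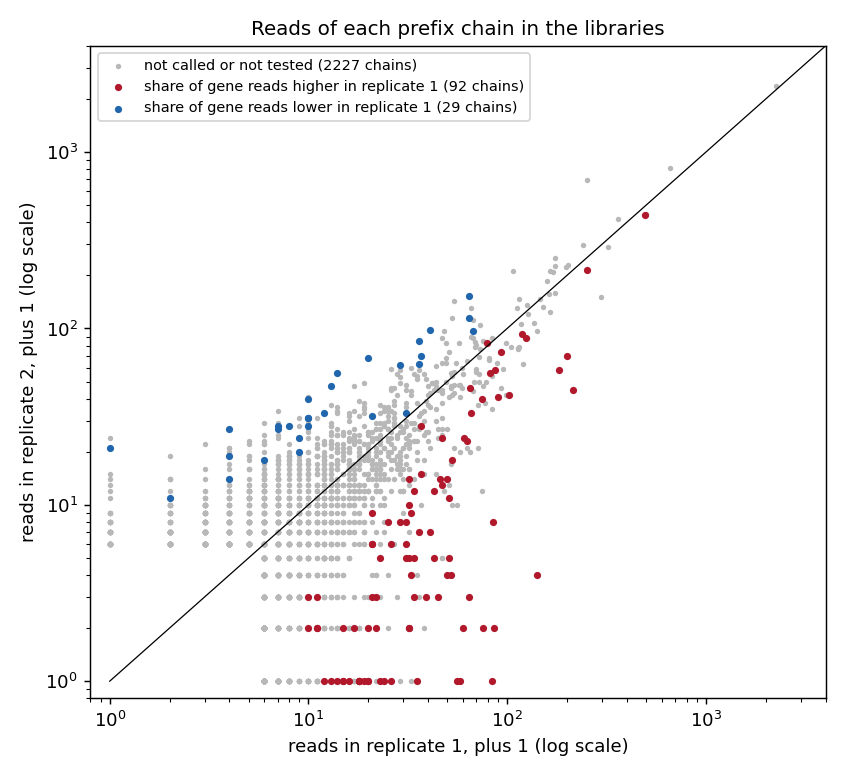
Reads of each of the 2348 member chains in replicate 1 (horizontal axis) and replicate 2 (vertical axis), each plus 1 on a log scale, with the line of equality. Red points are the 92 chains called higher and blue points the 29 called lower in replicate 1 in share of gene reads; red points reach 0 reads in replicate 2 from as many as 83 in replicate 1.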

How the data were processed

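The deposited tables hold counts made by the authors, whole reads per transcript model with no normalization, and the deposited annotations hold M21 and TALON models on mm10, per the file headers. The sources used here do not give the aligner, the instrument or the TALON version. The members, gene lists and tests were chosen with earlier results of these data known.

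Chains were matched by chromosome, strand and every intron. The parent was an M21 transcript that the deposited annotation lists for the prefix and whose first introns equal the chain. Among several, the one with the most reads over both libraries was taken, and on a tie, as where none had a read, the longest. No genome was used: sequence was read along spliced M21 transcripts, so ends outside the parent's exons have none. An A-rich window starts in the exon and may run into the next. The A-rich window and the sequences printed were chosen after the data had been seen.

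Fisher's exact test (two-sided) compared reads on a chain with the other reads of its gene, for all spliced chains with at least 10 reads in total in genes with at least 20 in each library, with Benjamini-Hochberg adjustment over all. Named were the 20 chains with the most reads, the 10 genes of highest member share, 5 called chains per direction and up to 3 genes per list, not all given; some are not reported here. Python 3.11.15, NumPy 2.4.6, SciPy 1.17.1 and pandas 2.3.3 were used.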

Additional observations from a re-analysis of the deposited data

How the results depend on the processing

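With at least 3 or at least 10 reads a member, the 2348 chains became 3904 and 1191, the share of last exons with an A-rich window 73.4% and 81.2%, and the share of ends followed by at least 12 A of 20 became 16.4% and 19.8%. The share of members found in the other library fell to 86.6% at 3 reads, against 94.0% at 5. It was 68.5% when 5 reads were asked of the other library and 87.7% when the 3' end had to lie within 100 bases. Asking for 14 A gave 39.2% of last exons and 6.62% of ends, and 6 A of 10 gave 26.7% of ends. With 1 member a gene, 79.1% of last exons had the window. A signal window of 40 bases gave 6.99% of members with a signal. Ends in exons were 70.1% and 67.7% when 10 and 200 bases counted as an annotated end, and 66.9% when weighted by reads. Ends agreed in 89.7% and 94.5% of shared chains within 10 and 200 bases.

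Leaving out 1 library gave 1665 to 1860 chains, 91.4% to 96.7% found in the other library, 68.8% to 69.8% of ends in exons, 18.2% to 19.3% of ends followed by A, 8.08% to 9.41% with a signal and 77.5% to 78.2% of last exons with the window. The count of called members was 86 in genes of at least 50 reads, 124 with no limit on the gene, 110 on known and incomplete-match models alone and 180 without the size limit, against 121. Of the 121, 115 were also called with no limit on the gene and 87 on known and incomplete-match models alone, so these similar counts hold partly different chains. The 86 called in genes of at least 50 reads were all among the 121, with 1185 member chains tested there against 1570. The 10 named differences kept their direction and their call wherever they could be tested. Those of Dock3, Arhgap20, Flrt1 and Ulk2 could be tested only with no limit on the gene, which uses the same counts as the main test. With reads on known and incomplete-match models alone, Map1b's share was 94.9% against 41.6%, Syt1's 27.3% against 15.9% and Kif1a's 64.0% against 39.0%. The A-rich window and its alternatives were chosen after seeing the data. No paired analysis was possible because the libraries form 1 group. Leaving out a library gave no value for the comparisons of the 2 libraries.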
